A study of Caenorhabditis elegans with 10 samples.

Results

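Early L4 males were compared with early L4 hermaphrodites of Caenorhabditis elegans, 36 to 40 h after hatching. The comparison rests on 2 of the 10 libraries of the series, 1 male and 1 hermaphrodite, chosen by that window alone. All 10 libraries came from animals with a him-5 mutation, which raises the share of males among the progeny, so hermaphrodites carried it as well. The other windows were late L3 (30 to 34 h), late L4 (42 to 46 h) and young adult (48 to 52 h and 54 to 58 h), again with 1 library per sex. Animals were kept at 20 °C on agar with OP50 bacteria, and each library was made from 1 µg of RNA of whole animals. With 1 library per sex there is no replicate error, so sizes are described and no difference is tested.

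In the fourth larval stage the sexes of this nematode become different in form. In males the tail tip is remodelled, sensory rays and spicules form, and ray, hook and head neurons take up male functions. In hermaphrodites the vulva and uterus are built, while the germline of both sexes makes sperm. Hermaphrodites later switch to oocytes, and their intestine then makes yolk. Each stage ends with a molt, in which the epidermis secretes a new cuticle made mostly of collagens and, in places, of cuticlins.

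Read counts per gene were expressed as CPM, reads of a gene per 1e6 gene reads, with library sizes adjusted by TMM, a scaling computed over all 10 libraries. Differences are log2 values of (male CPM + 1) over (hermaphrodite CPM + 1), which understate the difference of low genes. A gene was taken as measured if at least 1 library had 5 CPM or more, and as higher in one sex with a log2 value of at least 2, which is 4-fold. Ratios of CPM are given with a 95% exact binomial interval that covers counting error only. Where a library had 0 reads, the ratio is a lower bound, computed against 3 reads in that library. It too covers counting error only.

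The male library held 27907544 gene reads and the hermaphrodite library 8233794, so 1 read was worth 0.0372 and 0.114 CPM. Ribosomal RNA genes took 5.22% and 6.72% of gene reads, and mitochondrial genes 7.58% and 11.1%, in the male and the hermaphrodite library. The hermaphrodite library of 36 to 40 h stood apart in its low counts. It had reads on 14580 genes, against 16662 to 21747 in the other 9 libraries, and 542 genes with 1 to 3 reads. The male library of 42 to 46 h had 479 such genes, and the other 8 libraries had 1704 to 4203. Among 3506 genes whose lower neighbouring hermaphrodite library (30 to 34 h or 42 to 46 h) stood at 5 to 20 CPM, 24 (0.685%) had 0 reads at 36 to 40 h. For the male library of 36 to 40 h this was so for 4 of 4466 genes (0.0896%). What this pattern does to the sex difference was not tested, and the intervals and lower bounds do not cover it. Results are therefore also given against the highest hermaphrodite library of 30 to 46 h, which needs a gene to be 4-fold above all 3 libraries of that span.

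Of 11500 measured genes, 800 (6.96%) were higher in the male and 89 (0.774%) were higher in the hermaphrodite. These shares are the background for the gene lists below. At 0.774%, most lists would hold no hermaphrodite-higher member, so the lack of one is no trait of a list. The median log2 value was 0.16, the middle 50% of genes lay between −0.29 and 0.79, and 8528 genes (74.2%) were within 2-fold. The median depended on the scaling: it was 0.02 with plain library sizes and 0.04 with TMM from the 2 libraries, so group medians near 0.16 lie at the middle of all genes. The male-higher genes took 2.87% of male gene reads and 0.392% of hermaphrodite gene reads. The hermaphrodite-higher genes took 0.694% of hermaphrodite gene reads and 0.0811% of male gene reads. Of the 800 male-higher genes, 221 had 0 reads in the hermaphrodite library and 97 had 1 to 3. Among those 221, 140 were at under 0.25 of the male level in both neighbouring hermaphrodite libraries, and 12 stood at or above the male level in at least 1 of them. Against the highest library of the other sex at 30 to 46 h, 303 genes were male-higher and 50 hermaphrodite-higher. At 8-fold, 286 genes (2.49%) were male-higher and 28 (0.243%) hermaphrodite-higher. With at least 10 reads in both libraries, the counts were 384 and 58 of 11020 genes.

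**Figure D1:**
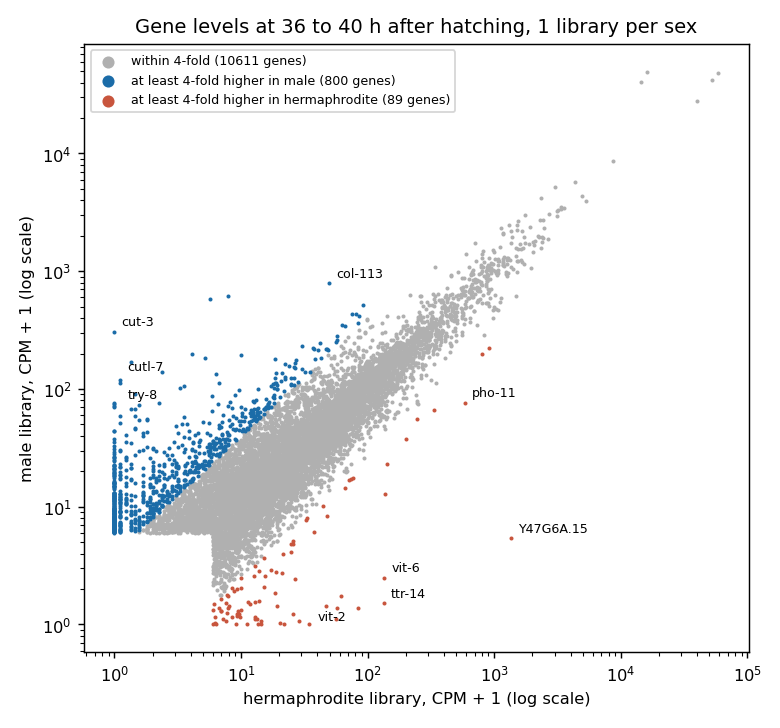
Level of each of the 11500 measured genes in the hermaphrodite library (horizontal axis, CPM + 1, log scale) and the male library (vertical axis, CPM + 1, log scale) of 36 to 40 h; each point is 1 gene, with the 800 male-higher genes in blue and the 89 hermaphrodite-higher genes in red. The blue points at the left edge include the 221 male-higher genes with 0 hermaphrodite reads, and Y47G6A.15 lies farthest to the lower right with 1359 CPM in the hermaphrodite and 4.43 CPM in the male.

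Genes that mark the sexes separated the 2 libraries. The gene her-1, which encodes the secreted ligand that starts male development by blocking the receptor TRA-2, had 573 reads in the male and 0 in the hermaphrodite, a ratio of at least 62.2. Its male level was 17.9, 21.3, 8.22, 11.6 and 11 CPM in order of the 5 windows. In hermaphrodites it stood at 1.04, 0, 0, 1.25 and 7.16 CPM, so the sexes were past 4-fold apart through 48 to 52 h and close at 54 to 58 h. Of 11 measured sex determination genes, her-1 was the only male-higher member and none was hermaphrodite-higher, with a median of −0.13.

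Beside her-1, 2 list members were beyond 2-fold, both X-linked: sex-1 with 5.81 CPM in the male and 0.914 in the hermaphrodite, and fox-1 with 4.35 and 15.5. The sex-1 value rests on 8 hermaphrodite reads, and hermaphrodites had 5.32 CPM at 30 to 34 h and 2.74 at 42 to 46 h. At 48 to 52 and 54 to 58 h sex-1 was hermaphrodite-higher, with log2 values of −2.82 and −2.84. Those of fox-1 at the other windows were 0.22, 0.34, −1.02 and −2.19 in order of time. Some genes that act after her-1 were close. The terminal regulator tra-1, a zinc finger factor that promotes hermaphrodite development, stood at 63.3 CPM in the male and 54.4 in the hermaphrodite. The receptor gene tra-2 stood at 49 and 59.7 CPM. The gene fem-3, which promotes male fates, stood at 15.4 and 8.91 CPM, while fem-1 stood at 49 and 50.1 CPM. At 54 to 58 h fem-3 and tra-2 were instead higher in hermaphrodites, with 65.5 against 12.7 CPM and 158 against 40.2 CPM. The 10 dosage compensation genes, which adjust X chromosome expression in hermaphrodites, had a median of 0.15 and no member past 4-fold. The X-linked gene xol-1, a switch for male fate in the early embryo, had 26 male reads and 0 hermaphrodite reads, under 1 CPM in both libraries.

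DM-domain factors carry out sexual differentiation in many animals. Of 10 genes in the family 4 were measured, with 1 higher in each sex. The gene mab-3, which acts in the male tail and represses yolk genes in the male intestine, had 609 reads in the male and 18 in the hermaphrodite, a ratio of 11 (6.92 to 18.7). Male levels of mab-3 were 34.5, 22.7, 20.6, 17.2 and 18.7 CPM across the windows, and no hermaphrodite library was above 2.08 CPM. The gene dmd-3, which drives remodelling of the male tail tip, had 126 male reads and 0 hermaphrodite reads. At 4.69 CPM it was just under the limit for a measured gene, as was mab-23 with 4.58 CPM and 123 against 0 reads. The family member dmd-9 went the other way, with 28 male and 65 hermaphrodite reads, or 1.04 against 7.42 CPM.

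Of 22 measured genes of male tail patterning, 3 were male-higher and none hermaphrodite-higher, and the median was 0.42. The largest of these differences was in ram-5, which is needed for normal ray shape. It had 1437 male and 7 hermaphrodite reads, a ratio of 66.9 (32.4 to 167). In males ram-5 stood at 3.91, 53.5, 11, 0.398 and 0.231 CPM, and in hermaphrodites at 1.46 CPM or less. Its male level was thus high at early L4 and low on both sides.

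The Hox genes egl-5 and mab-5 specify posterior identity and the rays. The male library held 879 reads of egl-5 and the hermaphrodite library 21, a ratio of 13.6 (8.87 to 22.1). Male egl-5 was 41.5, 32.7, 11.8, 12.2 and 7.17 CPM, above the hermaphrodite at each window. The gene mab-5 had 262 against 0 reads, a ratio of at least 28.5. Hermaphrodites had 5.63 CPM of mab-5 in late L3 and 4.12 CPM in late L4, however, against 9.75 CPM in the early L4 male. Its difference was thus within 4-fold against the neighbouring hermaphrodite libraries.

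Cuticle genes included cut-3, the gene with the largest male excess. Of 26 measured cuticlins, 9 were male-higher, 7 of them also against all hermaphrodite libraries of 30 to 46 h, and none was hermaphrodite-higher, with a median of 1.46. Cuticlins are zona pellucida domain proteins laid down in cuticle structures such as alae. Among all measured genes the highest log2 value was that of cut-3 (chromosome II, 8445169 to 8446831, assembly WBcel235). It had 8216 reads in the male and 0 in the hermaphrodite, at least 892-fold, and a log2 value of 8.26. In males cut-3 stood at 22.4, 306, 40.2, 0.716 and 0.308 CPM, and no hermaphrodite library was above 0.343 CPM. It was therefore a male gene of a short span around early L4. The cuticlin-like gene cutl-7 followed the same course, with 3200 reads against 1. Its levels were 15.8, 119, 18.2, 0.318 and 0.848 CPM in males, and no hermaphrodite library was above 0.203 CPM.

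Other cuticlins were present in the hermaphrodite but lower. The level of cutl-23 was 86 CPM in the male and 4.91 in the hermaphrodite, a ratio of 17.5 (13 to 24.3). For cut-5 the levels were 41.4 and 3.54 CPM, and for cut-6 they were 46.2 and 5.94 CPM. Both of these genes stood below 10 CPM in each later male library. The cuticlin-like gene cutl-6 had 295 male reads and 0 hermaphrodite reads, but 3.86 CPM in hermaphrodites at 30 to 34 h.

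Among 102 measured collagens of the col family outside the adult set, 20 were male-higher and 3 hermaphrodite-higher, and the median was 0.58. Against the libraries of 30 to 46 h, 12 and 2 remained. Collagens form the bulk of the cuticle, and each stage uses a partly different set. The most abundant of the named male-higher members was col-113, with 21170 male and 426 hermaphrodite reads. Its levels were 47.2, 788, 139, 4.29 and 2.47 CPM in males and 15.1, 48.7, 30.2, 1.44 and 1.69 CPM in hermaphrodites. Both sexes thus had col-113 highest at early L4, with a ratio of 16.2 (14.7 to 17.9) there.

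In other collagens the hermaphrodite level was lower still. The gene col-132 had 1887 male reads and col-148 had 1865, with 0 in the hermaphrodite for both. In males col-148 stood at 0, 69.4, 21.2, 0 and 0 CPM, so its reads came from L4 alone. For col-64 the counts were 3727 and 12 reads, a ratio of 101 (57.9 to 196). The level of col-33 was 112 CPM in the male, against 5.71 CPM in the hermaphrodite.

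A collagen gene on the same stretch of chromosome IV went the other way. The gene col-131 (13065729 to 13067300) had 1 male and 169 hermaphrodite reads, while col-132 (13089643 to 13091067) had 1887 and 0. In hermaphrodites col-131 stood at 7.3, 19.3, 4.35, 0 and 0 CPM. The X-linked gene col-172 had 39 male and 225 hermaphrodite reads, a ratio of 17.7 (12.6 to 25.6), and it too was highest at early L4. The third hermaphrodite-higher collagen, col-153, stood at 1.75 CPM in the male and 20.2 in the hermaphrodite, and within 4-fold of the male of 30 to 34 h at 5.21 CPM.

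Hedgehog-related proteins are secreted proteins that in worms act largely in the epidermis and cuticle. Of 29 measured members 6 were male-higher, 5 of these with 0 hermaphrodite reads, and none was hermaphrodite-higher, with a median of 0.54. The gene grd-16 had 585 against 0 reads, at least 63.5-fold, and grl-31 had 489 against 0. Male grl-31 stood at 2.17, 18.2, 1.39, 0.0795 and 0.0771 CPM, again high at early L4 alone. The gene grl-4 differed in kind: it had 310 against 0 reads at early L4, yet hermaphrodites had 44.5 CPM in late L3 and 31.3 CPM in late L4. In males grl-4 stood at 33.1, 11.5 and 39.6 CPM over the same windows. Both early L4 libraries were thus lower than those on either side. The hermaphrodite value is 0 reads in the library that stood apart in its low counts, and what lies behind it was not tested.

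**Figure D2:**
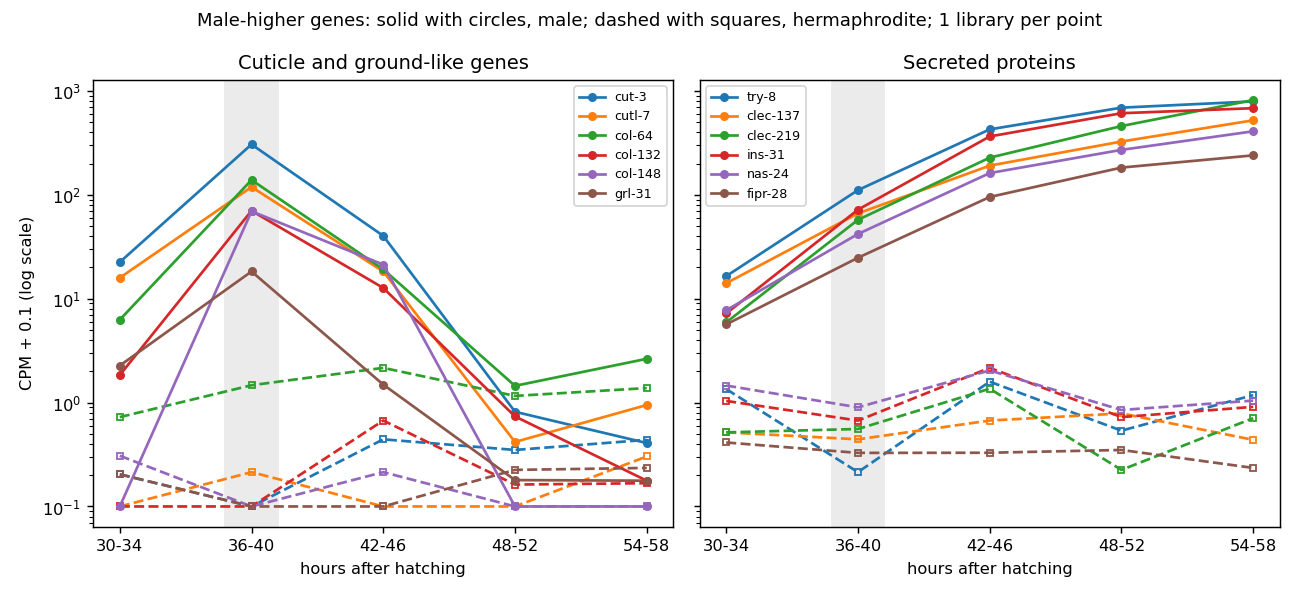
Levels (vertical axis, CPM + 0.1, log scale) of male-higher genes over the 5 windows (horizontal axis, hours after hatching), with male libraries as solid lines and circles, hermaphrodite libraries as dashed lines and open squares, 1 library per point, and the window of 36 to 40 h shaded. The cuticle and grl genes in the left panel peak in the shaded window in males, as cut-3 does at 306 CPM, and the secreted proteins in the right panel are higher in each later male library, as try-8 is at 427 to 794 CPM.

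Some of these cuticle genes had a passing male peak. A total of 81 genes had their highest male level at early L4, were at under 0.25 of it by 54 to 58 h and were 4-fold above the hermaphrodite libraries of 30 to 46 h. They made up 10.1% of the 800 male-higher genes. Among the 81 were 7 cuticlins, 12 col collagens, 4 hedgehog-related genes and 2 tubulins, and most of the 81 were in none of these lists. Genes known by sequence name were prominent too: Y39B6A.9 stood at 186, 612, 520.4, 25.4 and 9.48 CPM in males and at 6.85 CPM or less in hermaphrodites. The gene R01E6.5 stood at 175, 583, 345, 16.1 and 6.17 CPM in males and at 4.68 CPM or less in hermaphrodites. Both go by sequence name here.

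Molting genes and furrow collagens lay close to the median of all genes. The 24 measured molting genes had a median of 0.18, and the 6 furrow collagens 0.19, with no member past 4-fold. At the neighbouring windows the furrow collagen median was 1.76 (30 to 34 h) and 1.06 (42 to 46 h). The 16 precuticle genes, which line the forming cuticle, had a median of −0.39 at early L4 against 1.2 and 1.37 on either side. One member, dex-1, was male-higher with 95.9 against 20.8 CPM. The molting marker mlt-10 stood at 254 CPM in the male and 228 in the hermaphrodite, and the astacin nas-37, which acts in shedding the old cuticle, at 141 and 127 CPM. Both sexes thus had close levels of mlt-10 and nas-37. The adult collagen col-19 stood at 57.2 and 16 CPM, far under the 1375 to 2939 CPM of later windows. The adult collagen col-7, under the limit for a measured gene, had 84 male and 3 hermaphrodite reads, a ratio of 9.12 (3.02 to 45.1). The 6 measured adult collagens had a median of 0.82, with all 6 above 0 and none past 4-fold. At 30 to 34 h their median was 3.81. Whether the 2 libraries differ in stage was not tested. The adult collagens did not all follow col-19: col-38, col-49, col-63 and col-138 were highest at early L4 in both sexes, and col-62 at 42 to 46 h. The levels of col-38 at early L4 were 4154 CPM in the male and 2345 in the hermaphrodite.

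Of 12 listed genes of male sensory neurons, 7 were measured and 5 were not. The 7 reached 5 CPM in the male library alone and so had to lie on the male side. Their summed level was 112 CPM in the male and 1.48 CPM in the hermaphrodite. In bulk RNA, fewer cells of a type and less RNA per cell cannot be told apart. The polycystin gene pkd-2, a sensory channel of male ray, hook and head neurons, had 502 reads against 1. Male pkd-2 stood at 0.869, 18.7, 43.2, 47 and 47.9 CPM, and hermaphrodites at 0.417 CPM or less. Its partner lov-1 had 307 against 1 read and stood at 0.521, 11.4, 40.3, 42.1 and 36.2 CPM in males. Both were thus near 0 in late L3 males and present from early L4.

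The genes cwp-1 and cwp-2, co-expressed with the polycystins in these neurons, had 279 and 401 male reads, with 1 and 0 in the hermaphrodite. The gene cil-7, needed for release of vesicles from these cilia, had 168 against 0 reads. The alpha tubulin tba-6, used in the specialised cilia of male neurons, had 400 against 0 reads, and was highest in males at early L4 with 14.9 CPM. The channel gene asic-2, also on that list, had 673 against 8 reads, but hermaphrodites had 24 CPM at 30 to 34 h, close to the 25 CPM of the early L4 male.

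Of 19 measured genes of the cilium and of intraflagellar transport, the traffic along cilia, 6 were male-higher and none hermaphrodite-higher. Their median was 1.64, and 17 of the 19 lay above 0. The transport gene osm-5 had 211 against 8 reads, a ratio of 8.59 (4.28 to 20.2), and che-2 had 157 against 0. Levels were low in the male as well, between 5.36 and 8.71 CPM for the 6 genes. Against the highest hermaphrodite library of 30 to 46 h, che-2 alone was past 4-fold. Among 13 measured tubulins 3 were male-higher: tba-6, the beta tubulin tbb-4 of ciliated neurons with 804 against 9 reads, and tba-9 with 573 against 34. The tubulins of most cells were close, as in tba-1, tba-2, tbb-1 and tbb-2, with log2 values of 0.48, 0.52, 0.12 and 0.22.

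FMRFamide-like peptides, a family of neuropeptides, had a median of 0.86 over 27 measured genes. Of these, 2 (7.41%) were male-higher, near the 6.96% of all measured genes. The gene flp-23 had 213 against 0 reads, and its male levels were 2.95, 7.93, 9.35, 10.7 and 16.4 CPM, with at most 0.0625 CPM in hermaphrodites. The gene flp-19 had 202 against 3 reads but 6.05 CPM in hermaphrodites at 30 to 34 h. The 33 neuropeptide-like genes had a median of 0.61 and no member past 4-fold.

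Several neuronal genes, chosen after their values were seen, were male-higher as well. What share of all neuronal genes was male-higher was not computed. The synaptic vesicle gene rab-3 stood at 31.7 CPM in the male and 6.51 in the hermaphrodite, a ratio of 4.88 (3.73 to 6.49). It was within 4-fold under some of the other scalings. Tyrosine hydroxylase, encoded by cat-2 and needed for dopamine, had 298 against 1 read, while hermaphrodites had 3.34 CPM at 30 to 34 h against 11.1 CPM in the early L4 male. The serotonin enzyme gene tph-1 had 168 against 3 reads. Of these and the dopamine transporter dat-1, the vesicular transporter cat-1 and the secretion gene unc-31, all male-higher, cat-1 alone was 4-fold above each hermaphrodite library of 30 to 46 h. Male cat-1 stood at 5.56, 18.8, 50, 20.8 and 21.8 CPM, and hermaphrodite cat-1 at 3.44 CPM or less.

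Sperm genes were higher in the male but present in both sexes. All 27 measured major sperm protein genes, which encode the cytoskeletal protein of worm sperm, were at least 2-fold higher in the male, as were 20.3% of all measured genes. Their median was 2.14 and their values ran from 1.4 to 3.35, with 15 past 4-fold. Their summed level was 2031 CPM in the male and 441 CPM in the hermaphrodite. These genes are near-identical copies and reads that map to several places were given to none, so single members are uncertain. The highest ratio was that of msp-142, with 2601 and 75 reads. In males msp-142 stood at 35.7, 96.8, 175, 333 and 324 CPM, and in hermaphrodites at 1.67, 8.57, 31.1, 12.7 and 1.22 CPM. Hermaphrodites were thus highest at late L4, a window after the early L4 male had already reached a higher level. No major sperm protein gene was 4-fold above all hermaphrodite libraries of 30 to 46 h.

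Of 39 other measured sperm genes, 12 were male-higher and 31 at least 2-fold higher in the male, with a median of 1.61, and again none was 4-fold above all 3 hermaphrodite libraries. The sperm-specific gene ssp-31 had 717 against 14 reads, a ratio of 16.7 (9.88 to 30.7). The gene sss-1, chosen after its values were seen, was the most abundant of the 12, with 340.1 against 65.7 CPM. It stood at 3.96 CPM in hermaphrodites at 30 to 34 h and was above its early L4 level at 42 to 46 h. Nematode-specific peptide genes of the nspd family, known from sperm, were male-higher too: nspd-1 stood at 230.5 and 29.2 CPM, a ratio of 7.88 (6.95 to 8.97). Unlike the sperm genes above, nspd-9 was also 4-fold above all 3 hermaphrodite libraries, with 22 CPM in the male and 0.343, or 3 reads, in the hermaphrodite. The family as listed had 10 of 18 measured members male-higher and 1, nspc-4, hermaphrodite-higher with 1.82 against 12.9 CPM.

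Of 8 measured genes that set sperm fate in germ cells, 2 were male-higher and 6 were within 4-fold. The gene fog-3 had 1007 against 25 reads, a ratio of 13.1 (8.84 to 20.4), and fog-1, which encodes an RNA-binding protein, had 1190 against 67, a ratio of 5.79 (4.52 to 7.52). Male fog-3 was 30.2, 37.5, 31.3, 45.1 and 34.3 CPM, and hermaphrodite fog-3 was 16.8, 2.86, 0.686, 0.937 and 0.878 CPM. Hermaphrodites had 22.1 CPM of fog-1 at 30 to 34 h, against 44.3 CPM in the early L4 male, so that neither gene was 4-fold above all 3 hermaphrodite libraries of 30 to 46 h. Hermaphrodites were thus highest in fog-3 at late L3 and low from early L4 on, while their msp-142 was highest at late L4. The translational repressor gld-1 and the RNA-binding gene puf-8 lay on the hermaphrodite side, with log2 values of −1.17 and −1.07.

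Genes of shared germline function were close. The 40 measured members had a median of −0.06 and none past 4-fold, and their summed level was 2188 CPM in the male and 2176 CPM in the hermaphrodite. The 31 measured replication and cell cycle genes had a median of −0.29, the 29 histones −0.31 and the 78 ribosomal protein genes −0.00, with none past 4-fold. With plain library sizes the ribosomal median was −0.15, about as far under the median of all genes as before. At 54 to 58 h the corresponding medians were −1.57, −2.74, −3.09 and −1.30, in each case farther to the hermaphrodite side.

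A second group of male-higher genes encodes secreted proteins. Of 77 measured C-type lectins, proteins with a sugar-binding fold, 25 were male-higher and none hermaphrodite-higher, with a median of 0.49. Against the libraries of 30 to 46 h, 20 remained. The highest was clec-137, with 1779 reads against 3, a ratio of 193 (66 to 938). Its neighbours on chromosome II, clec-136 and clec-138, had 1164 against 0 and 903 against 3 reads. The 3 genes lie within 4615574 to 4619800 and may share sequence, so their reads are less certain singly. In males clec-137 stood at 14, 66.2, 191, 326 and 522 CPM, and hermaphrodites stayed at 0.687 CPM or less. The same course was seen in clec-219, with 5.82, 57.4, 228, 459.6 and 818 CPM in males.

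Trypsin-like proteases were male-higher as well. Of 12 measured members of the list of seminal fluid and sperm activation genes, 4 were male-higher, with a median of 1.45. The gene try-8 had 2993 reads against 1, and stood at 16.4, 111, 427, 691 and 794 CPM in males and 1.49 CPM or less in hermaphrodites. The genes try-13 and try-11, on the same stretch of chromosome V, had 1793 against 4 and 547 against 3 reads. The fourth, try-12, stood at 9.12, 10.3, 10.6 and 11.4 CPM in males from early L4 on, and hermaphrodites had 3.86 CPM at 30 to 34 h, within 4-fold. The annotated spans of try-8 and try-11 overlap at their ends (7452912 to 7454336 and 7451721 to 7452951). The protease try-5, which activates sperm after transfer in seminal fluid, was within 4-fold, with 231 against 20 reads and a ratio of 3.76 (2.38 to 6.28). Its inhibitor swm-1 stood at 18.9 and 10.9 CPM, and the sperm activation gene snf-10 at 27.6 and 11.3 CPM.

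Peptides and metalloproteases were among these secreted proteins. The insulin-like gene ins-31 had 1932 against 5 reads, a ratio of 126 (53.9 to 388), and 7.12, 71.9, 365, 611 and 683 CPM in males. It was the only male-higher gene of 9 measured insulin-like genes. Of 20 measured astacin metalloproteases 6 were male-higher, led by nas-24 with 1126 against 7 reads. Their courses differed: nas-24, nas-19 and nas-17 were higher in each later male library, whereas male nas-29 stood at 5.82, 18, 0.822, 0.239 and 0.463 CPM. The level of nas-39 was 5.36 CPM in the early L4 male and 1.77 CPM at 54 to 58 h. Of 40 measured antimicrobial peptide and lysozyme genes 5 were male-higher, all of the fip and fipr families. The gene fipr-17 had 688 against 0 reads and fipr-28 had 664 against 2. Of 12 measured srlf genes 4 were male-higher, with srlf-18 at 774 against 5 reads. In this family srlf-3 was highest in males at early L4 with 23.5 CPM and at 2.47 CPM or less in later male libraries, and was within 4-fold under another scaling.

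Altogether 93 male-higher genes were 4-fold above the hermaphrodite libraries of 30 to 46 h and at least 4 times as high again in males at 54 to 58 h. They made up 11.6% of the male-higher genes. Among the 93 were 17 C-type lectins, 5 fip and fipr genes, 3 try genes, 3 astacins and 3 srlf genes. The gene Y74C10AR.2, which had the second highest log2 value of all genes, stood at 34.8, 169, 265, 419 and 527 CPM in males and did not reach that limit. The gene F59B2.12, chosen after its values were seen, stood at 22.9 CPM at 30 to 34 h and at 1129, 2766 and 4468 CPM at the later windows in males and at 4.81 CPM or less in hermaphrodites.

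Yolk protein genes were among the hermaphrodite-higher genes. Of the 6 vit genes, which encode the vitellogenins taken up by oocytes, 4 were measured, each through the hermaphrodite library alone, and these 4 were hermaphrodite-higher. Their summed level was 5.62 CPM in the male and 208 CPM in the hermaphrodite. The gene vit-6 had 40 male and 1171 hermaphrodite reads, a ratio of 89.9 (65.6 to 126). In hermaphrodites vit-6 stood at 33.6, 134, 4992, 15772 and 16355 CPM, so early L4 was far under the adult level. Males had 25.8, 1.49, 201, 64 and 200.4 CPM, lowest at early L4. The X-linked gene vit-2 had 0 male and 292 hermaphrodite reads, at least 299-fold, and vit-5 had 0 and 71. Hermaphrodite vit-5 was 8.11 CPM, about the male level of 7.21 CPM at 30 to 34 h. No vit gene was 4-fold above all 3 male libraries of 30 to 46 h, since males of 42 to 46 h had 15.7 to 201 CPM of the 4 genes.

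Genes of oocytes and the eggshell were only beginning to part. Of 23 measured, 2 were hermaphrodite-higher and 9 at least 2-fold higher in the hermaphrodite (5.55% of all measured genes were), with a median of −0.83. At the later windows this median was −2.84, −3.95 and −4.12. The chondroitin proteoglycan gene cpg-3, an eggshell component, had 48 against 157 reads, and perm-2, of the permeability barrier of the egg, had 7 against 59. The yolk receptor gene rme-2 stood at 50.4 CPM in the male and 55.1 in the hermaphrodite, and oma-1, of oocyte maturation, at 10.3 and 10.4 CPM. At 42 to 46 h hermaphrodites had 468 CPM of rme-2 and 41.4 CPM of oma-1, against 62.9 and 18 CPM in males.

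The uterine genes ule-4 and ule-2 were present in the early L4 hermaphrodite. The gene ule-4 had 12 against 405 reads, a ratio of 104 (58.7 to 202), and ule-2 had 0 against 111, at least 114-fold. In hermaphrodites ule-4 stood at 0.208, 46.3, 229, 262 and 281 CPM, and in males at 5.8 CPM or less. They were the only hermaphrodite-higher genes 4-fold above the males of 30 to 46 h that were also at least 4 times as high again at 54 to 58 h. The other 6 measured uterus and sex muscle genes were within 4-fold. Among them the uterine factor egl-13 stood at 4.91 and 19.3 CPM. The 24 measured vulval genes had a median of 0.06, which was −0.08 with plain library sizes, and none was hermaphrodite-higher. Of these genes 2 (8.33%) were male-higher, near the 6.96% of all measured genes. They were the Notch receptor gene lin-12, with 52.5 against 9.59 CPM, and zmp-1, with 216 against 11 reads, which was within 4-fold under another scaling. Neither was 4-fold above all hermaphrodite libraries of 30 to 46 h, and hermaphrodites had 28.1 CPM of lin-12 at 30 to 34 h.

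**Figure D3:**
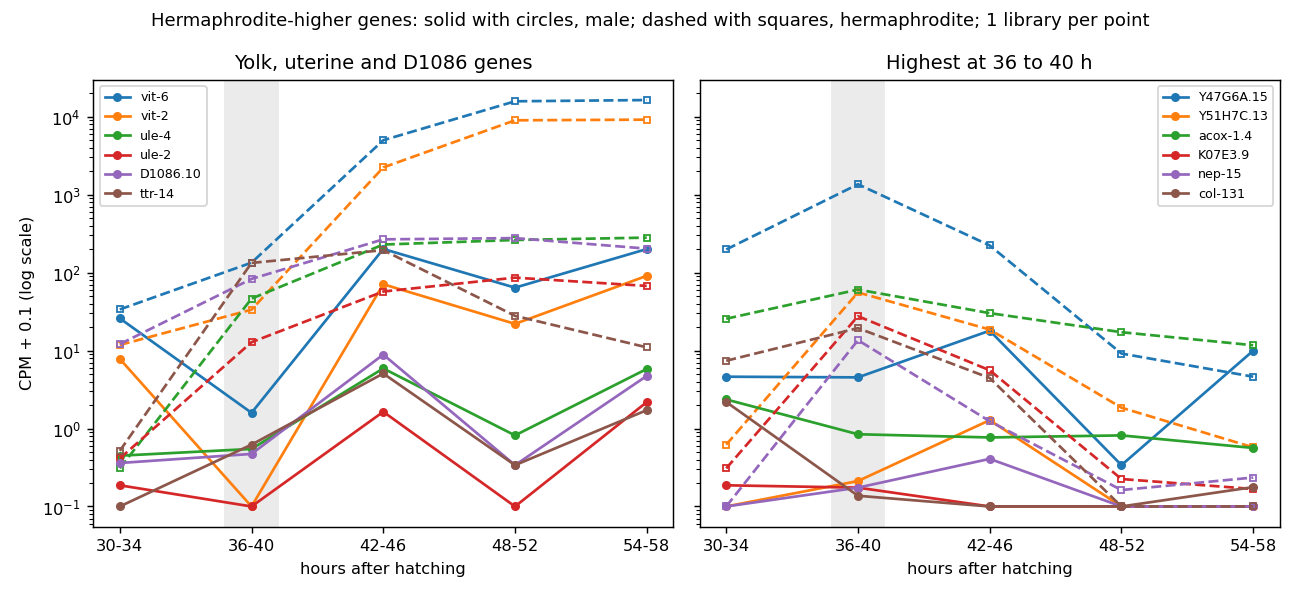
Levels (vertical axis, CPM + 0.1, log scale) of hermaphrodite-higher genes over the 5 windows (horizontal axis, hours after hatching), with male libraries as solid lines and circles, hermaphrodite libraries as dashed lines and open squares, 1 library per point, and the window of 36 to 40 h shaded. Yolk and ule genes in the left panel are far higher in later hermaphrodites, with vit-6 at 4992 to 16355 CPM, whereas the genes in the right panel are highest in the shaded window, with Y47G6A.15 at 1359 CPM.

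The largest hermaphrodite excess lay in a gene known by sequence name. Y47G6A.15 (chromosome I, 3472965 to 3476300) had 119 male and 11896 hermaphrodite reads, a ratio of 307 (256 to 371). In hermaphrodites it stood at 198, 1359, 223, 9.06 and 4.52 CPM, and in males at 17.9 CPM or less. It was thus a hermaphrodite gene of late L3 to late L4 with its peak at early L4. A pair of genes close together on chromosome II, Y51H7C.13 and Y51H7C.1, had 3 against 487 and 0 against 182 reads. The gene D1086.10 had 10 against 726 reads and stayed high, with 12, 82.9, 267, 277 and 203 CPM in hermaphrodites.

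Members of the transthyretin-like family, small secreted proteins found in many nematodes, parted strongly for 2 of 34 measured genes. The gene ttr-14 had 14 against 1164 reads, or 0.521 against 133 CPM, and ttr-34 had 12 against 161. In hermaphrodites ttr-14 stood at 0.417, 133, 194, 27.8 and 10.9 CPM, so it appeared between late L3 and early L4. The rest of the family had 1 male-higher member and the median was −0.19. Another gene with a peak in the window was acox-1.4, of the acyl-CoA oxidase family, with 0.744 CPM in the male and 60.5 in the hermaphrodite. It stood at 25.5, 60.5, 30.1, 17.1 and 11.6 CPM in hermaphrodites.

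A total of 30 genes had their highest hermaphrodite level at early L4, were at under 0.25 of it by 54 to 58 h and were 4-fold above the males of 30 to 46 h. They made up 33.7% of the 89 hermaphrodite-higher genes. The following were chosen after their values were seen. The forkhead gene fkh-6, known for its role in the somatic gonad, had 3 against 54 reads, a ratio of 55.2 (17.9 to 276), and was at 1.46 CPM or less in every other hermaphrodite library. The gene pes-8 stood at 11.8 CPM in the male and 136 in the hermaphrodite, and nep-15, of the neprilysin family of peptidases, had 2 against 118 reads. Outside that set, the acid phosphatase family gene pho-11 was more abundant, with 75.3 against 586 CPM, and was within 4-fold of the male of 30 to 34 h at 152 CPM.

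**Figure D4:**
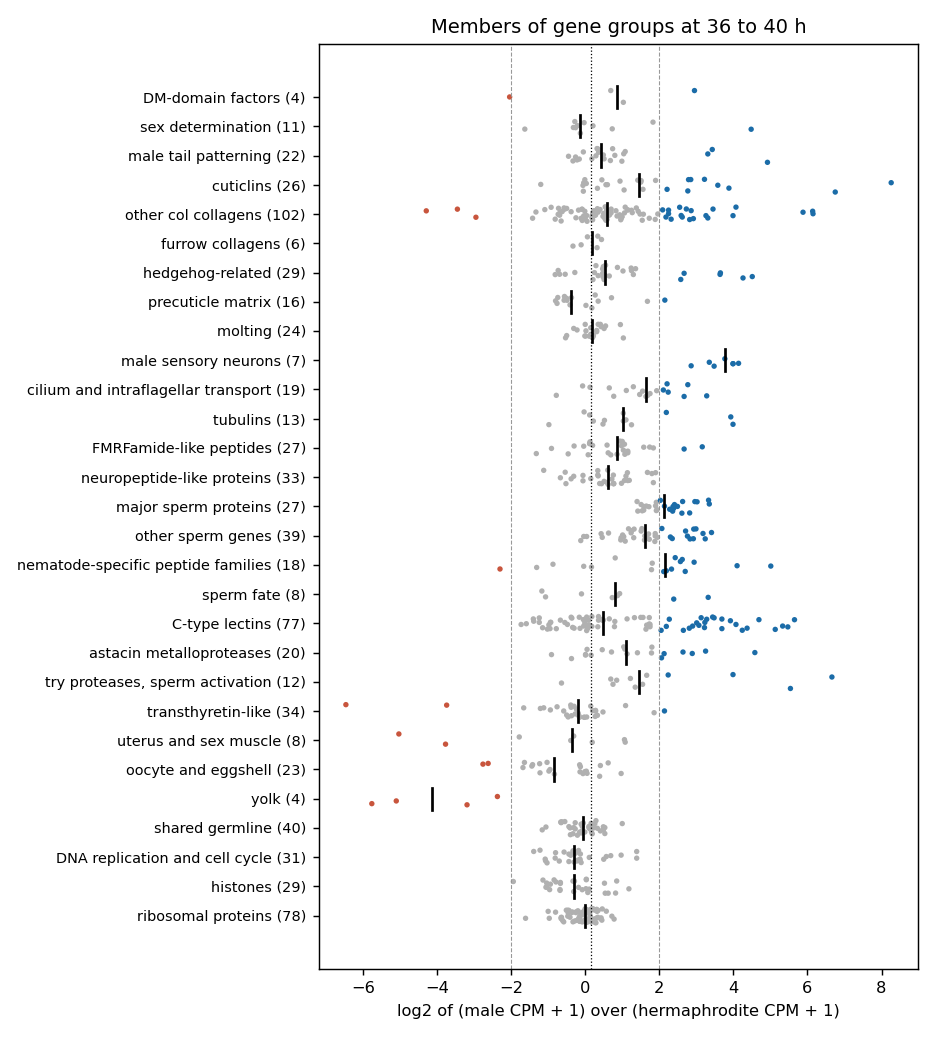
Log2 of (male CPM + 1) over (hermaphrodite CPM + 1) at 36 to 40 h (horizontal axis) for measured members of 29 gene groups (vertical axis, number of measured members in parentheses); each point is 1 gene, blue or red past the dashed 4-fold limits, black bars are group medians and the dotted line is the median of all genes, 0.16. The male neuron and yolk genes, each measured through 1 library alone, lie on opposite sides, with the ribosomal proteins centred at −0.00.

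Other families showed few large differences. Of 97 measured nuclear hormone receptors 3 were male-higher, and none was 4-fold above all hermaphrodite libraries of 30 to 46 h. Of 75 measured cytochrome P450 and glucuronosyltransferase genes 2 were male-higher, and of 19 measured intestinal genes none was higher in either sex. Of 24 measured muscle genes 1 was male-higher, the troponin I gene tni-3 with 45.1 against 10.1 CPM. It was within 4-fold under another scaling, and the muscle median was 0.12 here and −0.02 with plain library sizes. Of 1310 chemoreceptor genes only 11 were measured, and the 1 past 4-fold was srm-3, with 8 male and 52 hermaphrodite reads. The 14 measured mitochondrial genes were all below 0, between −0.84 and −0.28.

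By chromosome, the share of measured genes that was male-higher ran from 5.14% on chromosome III to 8.8% on chromosome IV, with 5.63% on X. The hermaphrodite-higher share was 2.0% on X (28 of 1402 genes) and 0.257% to 0.866% on each of the 5 autosomes. The X chromosome held 12.2% of measured genes, 31.5% of hermaphrodite-higher genes and 9.88% of male-higher genes. Its median log2 value was 0.11 and that of the autosomes 0.17, both close to that of all genes. At the other 4 windows X held 16.7%, 25.6%, 16.2% and 13.5% of the hermaphrodite-higher genes. The genes vit-1, vit-2, vit-5, ttr-14, ttr-34, col-172 and nep-15 were among the X-linked genes named above.

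**Figure D5:**
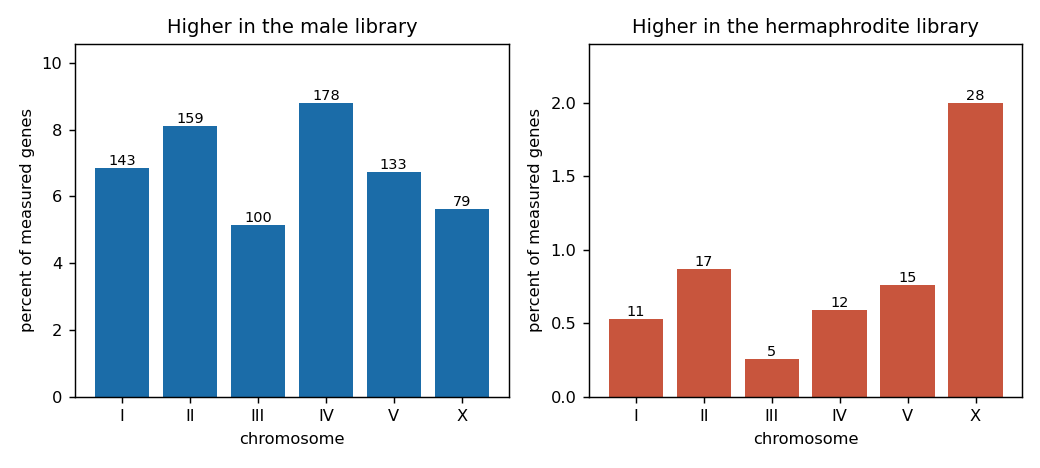
Percent of the measured genes of each chromosome (horizontal axis) that were at least 4-fold higher at 36 to 40 h in the male library (left panel) or the hermaphrodite library (right panel), with the number of genes above each bar; the vertical axes differ in range and start at 0. The X chromosome has the tallest bar on the right, 2.0% or 28 genes, and 5.63% or 79 genes on the left.

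Early L4 had the fewest genes past 4-fold of the 5 windows, over both directions. The male-higher share of measured genes was 9.51%, 6.96%, 13.3%, 21.3% and 23.5% in order of time, and the hermaphrodite-higher share was 0.332%, 0.774%, 2.36%, 6.97% and 10.1%. The early L4 male share was thus the lowest of the 5 windows, while the hermaphrodite share was higher at each later window. Of the 800 male-higher genes, 304 (38%, and 29.4% of the 1033 at that window) were also male-higher at 30 to 34 h. At 54 to 58 h 525 were (65.6%, and 19.9% of the 2642 there). All 5 windows shared 174 of them, and 193 were past the limit at early L4 alone. Of the 89 hermaphrodite-higher genes, 9 (10.1%, and 25% of 36) were so at 30 to 34 h and 41 (46.1%, and 15.2% of 270) at 42 to 46 h. At early L4 alone, 42 were past the limit.

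The 2 directions also differed in when their genes were highest. Of the male-higher genes, 195 (24.4%) had their highest male library at early L4 and 354 (44.2%) at 54 to 58 h. Of the hermaphrodite-higher genes, 49 (55.1%) had their highest hermaphrodite library at early L4 and 10 at 54 to 58 h. The genes were picked at early L4, which favours a high level in that window. The same shares over all measured genes were not computed, so these shares cannot be read as traits of either set. Of the 800 male-higher genes 473 go by sequence name only, and of the 89 hermaphrodite-higher genes 38, against 4670 of the 11500 measured (40.6%). The hermaphrodite-higher share is thus close to that of all measured genes. These counts include any gene whose symbol is shared by several genes. The gene lists used here held 156 of the 800 and 18 of the 89.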

How the data were processed

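RNA-seq of whole animals of 10 samples was used, of which the male and the hermaphrodite of 36 to 40 h form the comparison. The authors deposited whole-number read counts for each gene. CASAVA 1.8 and HTSeq are named in the processing notes of the submitters. For the aligner, genome build, HTSeq version and strand setting, the labels give nothing, so overlapping and antisense genes are uncertain. Each table lists 46589 genes. Its 5 totals were left out of library sizes: in the male and hermaphrodite libraries, reads on no feature were 3.7% and 3.31% of all reads, ambiguous 0.62% and 0.6%, not aligned 4.9% and 4.22%, and aligned to several places 14.85% and 11.23%. Reads of the last kind count for no gene, which leaves near-identical copies uncertain.

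Names and coordinates (counted from 1) came from the Ensembl annotation of WBcel235, which held 46180 of the sequence names and not 409. Genes that share a symbol (1312) go by sequence name. TMM factors came from edgeR 4.0.16 (R 4.3.3) over the 15924 genes that reached 1 CPM in 2 or more libraries, and were 0.9629 for the male and 1.063 for the hermaphrodite library. CPM, log2 values and intervals were then computed, and the code was tested on simulated data. No test was made: each group is 1 sample, and the labels do not say whether libraries come from separate cultures.

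The comparison, the lists and the naming rule were chosen with earlier results of these data known. The rule names the 12 highest and 12 lowest log2 values, up to 5 members past 4-fold per list and direction, the member with the highest CPM where a list has none, all members of lists with 8 or fewer measured, and genes that mark sex or stage. Some genes that it names are not reported here. Other genes were chosen after their values were seen: those so described, and beside them tra-2, fem-1, fem-3, fox-1, sex-1, cut-6, try-5, swm-1, snf-10 and list members given by their log2 value alone. The genes nop-1 and bli-4, first listed by mistake among sperm and male tail genes, were left out of those lists. Alternatives were other scalings, pseudocounts, CPM minimums and fold limits. The comparison with the libraries of 30 to 46 h and the minimum of 10 reads in both libraries were added after seeing the data. No sequence is printed, since no sequence tables were used here.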

Additional observations from a re-analysis of the deposited data

Results flagged for a closer look

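A few genes were past 4-fold in one direction at 36 to 40 h and past it in the other at a later window, with 1 library per sex each time, so that the difference between windows was not tested. They were chosen after their values were seen. The C-type lectin clec-91 was male-higher at early L4, with 8.26 against 0.914 CPM and a log2 value of 2.27. It was hermaphrodite-higher later, with log2 values of −2.92, −4.44 and −4.91 at 42 to 46, 48 to 52 and 54 to 58 h, where hermaphrodites had 85.3, 218 and 285 CPM. The GATA factor gene egl-18, which acts in the epidermal seam, had a log2 value of 2.67 at early L4 (11.2 against 0.914 CPM), and −2.16 and −2.98 at 48 to 52 and 54 to 58 h. Y65B4BL.3 had 2.61 at early L4 and −2.15 at 54 to 58 h. Hermaphrodites had 5.63 CPM of egl-18 and 4.38 CPM of Y65B4BL.3 at 30 to 34 h, so the early L4 hermaphrodite was low against its own neighbours for both. The noncoding RNA gene F31C3.14 had 1 male and 46 hermaphrodite reads at early L4, a log2 value of −2.59, and 6.5 at 54 to 58 h, where the male library had 321 CPM and every other library 5.25 CPM or less.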

How the results depend on the processing

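The counts of male-higher and hermaphrodite-higher genes (800 and 89) depend mostly on the limits set. They were 396 and 42 with a pseudocount of 3, 2334 and 638 at 2-fold, and 286 and 28 at 8-fold. Against the highest library of the other sex at 30 to 46 h they were 303 and 50, and with at least 10 reads in both libraries 384 and 58. With at least 10 CPM the hermaphrodite-higher count was 58 and the male-higher count 539. Under library sizes alone, RLE factors, TMM from the 2 libraries, no ribosomal RNA and mitochondrial genes, a pseudocount of 0.25, a minimum of 2 CPM or none, the counts ran from 704 to 1043 and from 89 to 123. The male share of the genes past the limit was 90.0%, and was 78.5% at 2-fold and 85.8% against the libraries of 30 to 46 h. The median log2 value of 0.16 was 0.02 with library sizes alone and 0.04 with TMM from the 2 libraries, and 0.07 to 0.19 otherwise. No gene named as past the limit changed direction under another scaling or pseudocount, and of 145 such genes 4 (zmp-1, srlf-3, tni-3 and rab-3) were within 4-fold under at least 1 scaling. Of list counts, 152 moved by over 1.5 times and 902 did not. No paired analysis was possible because each sex has 1 library per window, and for the same reason no replicate could be left out. Depth limits the hermaphrodite library most, where 3 reads are 0.343 CPM, against 0.112 CPM in the male.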

Other observations

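A pair of genes of pyrimidine and purine synthesis, chosen after their values were seen, were hermaphrodite-higher at early L4 and abundant. The gene pyr-1, for the enzyme that starts pyrimidine synthesis, had 5269 male and 6984 hermaphrodite reads, a ratio of 4.07 (3.92 to 4.22). It stood at 487, 798, 228, 158 and 183 CPM in hermaphrodites and at 177, 196, 86.0, 71.6 and 58.5 CPM in males. The gene pfas-1, of the purine pathway, stood at 22.2 CPM in the male and 142 in the hermaphrodite, a ratio of 6.38 (5.78 to 7.05). Both were 4-fold above each male library of 30 to 46 h, and both were higher in the hermaphrodite at every window.

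Pseudogenes were male-higher in 24 of 184 measured cases (13%), and protein-coding genes in 762 of 11098 (6.87%). SCP-like extracellular protein genes were also seen among male-higher genes, chosen after their values were seen: scl-7 had 781 against 1 read and scl-9 had 377 against 0. Their male levels at 54 to 58 h were 256 and 82.5 CPM, against 29.1 and 14 CPM at early L4.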
